A study of Mus musculus with 20 samples.

Results

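The sensory neuropeptide genes examined here were 10 precursor genes of peptidergic afferents, Calca, Calcb, Tac1, Adcyap1, Gal, Vip, Sst, Nppb, Nmb and Cartpt. They were taken by Ensembl identifier out of 37620 genes listed, for the peptides they encode, with earlier results of these data known. RNA was sequenced from Trpv1 neurons sorted out of dorsal root ganglia (DRG), and the question was how lumbar DRG (L4-5), which supply somatic targets, differ from sacral DRG (L6-S1), which also supply the pelvic organs. All 20 libraries came from mice of 6 to 8 weeks that were homozygous for Trpv1tm2Bbm, an allele that places a PLAP and nuclear LacZ reporter under the Trpv1 locus. No library without the allele was part of the set. Beta-galactosidase from the reporter turned a substrate into fluorescent DDAO, and the brightest cells were collected, so neurons with little reporter are under-represented in every group. The groups were male lumbar, male sacral, female lumbar and female sacral, with 5 libraries each. Each of the 10 donors gave 1 lumbar and 1 sacral library. The methods describe 5 male and 5 female mice, which is 1 mouse per donor, whereas the donor labels carry 2 animal numbers each, and how these fit together is not given in the sources used here.

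Neuropeptides are made as long precursors, cut by prohormone convertases inside dense-core granules and released from both the spinal and the peripheral ends of a sensory neuron. CGRP (from Calca and Calcb) and substance P (from Tac1) define the classical peptidergic nociceptor and dilate vessels and drive plasma leakage when released in the periphery. PACAP (from Adcyap1), galanin (Gal), VIP (Vip) and the CART peptide (Cartpt) are best known from visceral and injured afferents, somatostatin (Sst) and the natriuretic peptide BNP (Nppb) from itch afferents, and neuromedin B (Nmb) from small-diameter nociceptors.

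The largest differences between the levels were in Gal and Adcyap1, which were upregulated in sacral DRG by 1.95-fold (95% interval 1.57 to 2.44) and 1.82-fold (1.52 to 2.17). Cartpt was upregulated in sacral DRG by 1.57-fold (1.29 to 1.91) and Nmb by 1.19-fold (1.04 to 1.36). Calca, Calcb, Tac1, Sst and Nppb did not pass the test, and Vip had too few reads to be tested. Of the 9 members tested, 4 were called between the levels, all higher in sacral DRG. Among all 16304 genes tested, 45.7% were called and 30.4% were called higher in sacral DRG, so the count of members is near the background and the values of single genes carry the description. The test was limma on the deposited log2 RPKM (reads scaled to gene length, with the values of every library set to the same median, 0.93) with the donor as a block and Benjamini-Hochberg adjustment over all genes tested, called at an adjusted p of 0.05 or below. A log2 difference is always lumbar minus sacral, so a negative value is higher in sacral DRG.

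Several features of the libraries moved with the level. The summed reads per library ranged from 43906575 to 66407321, and 21.5% to 41.6% of them were mitochondrial in sacral libraries against 37.2% to 60.4% in lumbar libraries. The mean of 9 pan-neuronal markers was 6.70 to 7.12 log2 RPKM in sacral and 5.92 to 6.73 in lumbar libraries, and all 9 were called higher in sacral DRG. The mean of 10 glial markers was 4.79 to 5.91 in sacral and 5.69 to 6.79 in lumbar libraries, with 9 of 10 called higher in lumbar DRG, and their summed level was 982 to 1613 RPKM in sacral and 1514 to 3112 RPKM in lumbar libraries. No glial marker was at 0. Trpv1 itself, the gene behind the sort, was read in every library, at 4.70 ± 0.35 (SD, n = 10) in sacral and 3.74 ± 0.41 in lumbar DRG, a difference of -0.96 (SE 0.15, limma adjusted p = 3.5e-05). In such bulk samples, fewer cells of a type and less RNA per cell cannot be told apart. Rescaled and covariate fits are given with the results for the neuropeptides. What part these features have in those results was not tested.

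The CGRP genes lie close together on chromosome 7 (mm9), Calca on the minus strand at 121774994 to 121779871 and Calcb on the plus strand at 121862157 to 121866879, with 82285 bases between them. Calca carries both calcitonin and CGRP transcripts, and the deposited value covers the whole gene. The coding stretches below are shown because they are the part most alike between both genes, and it is there that a read is hardest to assign. Each is 111 bases of coding sequence in the reference annotation of the mm9 genome (GENCODE vM1), bases 218 to 328 of the CGRP form of Calca (transcript Calca-201) and 221 to 331 of Calcb, and capitals mark the 5 bases that differ.
Calca: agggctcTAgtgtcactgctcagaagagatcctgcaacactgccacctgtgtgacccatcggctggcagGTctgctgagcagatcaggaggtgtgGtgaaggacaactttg
Calcb: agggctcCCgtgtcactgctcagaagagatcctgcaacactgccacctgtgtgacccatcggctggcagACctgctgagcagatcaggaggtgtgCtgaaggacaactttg
The pair was identical at 106 of 111 bases (95.5%), with an unbroken identical run of 60 bases. Most of the stretch encodes the mature CGRP peptide, and its first bases belong to the propeptide before it. Only uniquely mapped reads were counted upstream, so reads inside that run may be missing from both genes, and their values are uncertain to that extent.

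Calca was the most abundant member at both levels. Its level was 9.64, 9.97 and 10.36 log2 RPKM (lowest, median, highest) in lumbar and 9.44, 9.83 and 10.16 in sacral libraries, from 50339 to 96960 reads per library. The ranges overlapped nearly throughout, with the sacral libraries marginally lower. The difference was 0.16 (SE 0.09, 95% interval -0.03 to 0.34, limma adjusted p = 0.158), and 2 of 10 donors had more in sacral DRG. Calcb, which gives beta-CGRP, stood far lower at 5.86, 6.42 and 6.61 in lumbar and 6.00, 6.35 and 6.69 in sacral libraries. Its difference was 0.02 (95% interval -0.17 to 0.20, limma adjusted p = 0.894), which is 0.871- to 1.12-fold for sacral over lumbar DRG.

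Tac1 (chromosome 6, 7505071 to 7512973, plus strand), the precursor of substance P and neurokinin A, was the second most abundant. Its level was 8.88, 9.19 and 9.62 in lumbar and 8.84, 9.33 and 9.76 in sacral libraries, again with ranges that overlapped throughout. The difference was -0.10 (SE 0.08, 95% interval -0.27 to 0.08, limma adjusted p = 0.37), and 7 of 10 donors had more in sacral DRG.

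**Figure D1:**
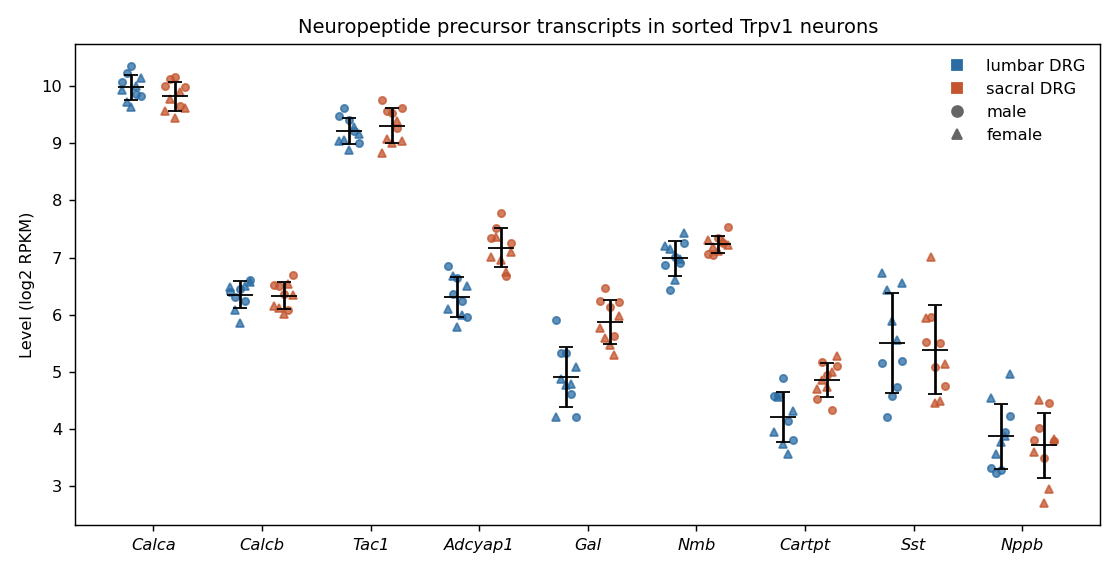
Level of 9 neuropeptide precursors in log2 RPKM (vertical axis) in each of 20 libraries, lumbar in blue and sacral in orange, circles for male and triangles for female donors, with black marks for the mean and SD of 10 libraries. Calca and Tac1 sit above 8.8 in every library, and Gal, Adcyap1 and Cartpt are shifted upwards in sacral DRG while Sst and Nppb spread widely at both levels.

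On this per-length scale the members ordered, by their mean over 20 libraries, as Calca, Tac1, Nmb, Adcyap1, Calcb, Sst, Gal, Cartpt and Nppb. Calca exceeded Tac1 by 0.64 ± 0.19 (SD) log2 units and Tac1 exceeded Nmb by 2.15 ± 0.40, and in each case the order held in 20 of 20 libraries. Other neighbours were not separated so clearly. Nmb stood above Adcyap1 in 10 of 10 lumbar but only 6 of 10 sacral libraries, with a mean gap of 0.37 ± 0.51, and Adcyap1 stood above Calcb in 10 of 10 sacral but 5 of 10 lumbar libraries. Sst and Gal differed by 0.05 ± 1.13, less than their spread, with Sst higher in 7 of 10 lumbar and 2 of 10 sacral libraries. Gal exceeded Cartpt in 20 of 20 libraries, by 0.86 ± 0.42.

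Of the summed RPKM of the 10 genes, Calca made up 46.1% to 54.5% in lumbar and 41.9% to 45.9% in sacral libraries, so its shares just failed to overlap. The share of Adcyap1 was 3.14% to 5.57% in lumbar and 5.19% to 8.81% in sacral libraries, and that of Gal was 1.55% ± 0.48 (SD, n = 10) and 2.88% ± 0.51. Tac1 held 29.5% ± 2.5 and 30.7% ± 2.9. The sum itself was 2034 ± 261 RPKM in lumbar and 2099 ± 330 in sacral DRG, a gap smaller than the SD of either group. As a share of all reads on genes, mitochondrial reads included, the 10 genes took 0.209% ± 0.031 in lumbar and 0.270% ± 0.048 in sacral DRG, a gap larger than either SD. These shares are descriptions and were not tested. The last share has mitochondrial reads in its denominator, 37.2% to 60.4% of lumbar and 21.5% to 41.6% of sacral reads. The share of reads outside the mitochondrial genome was not computed. Scaled to those reads, Calca (0.38) and Tac1 (0.13) lay higher in lumbar DRG, and Gal (-0.74) and Adcyap1 (-0.64) in sacral DRG.

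The promoter windows of Gal, Adcyap1 and Cartpt are shown next because these genes differed most between the levels, with that of Sst beside them because it holds the same full motif as Cartpt. They are RefSeq sequences on GRCm38.p6, 300 bases around the annotated start and mostly before it, printed on the gene's own strand, and for Adcyap1 the second of 2 annotated starts is given. Capitals mark the cAMP response element TGACGTCA or its core TGACG (on either strand, so that CGTCA counts too and each full element holds 2 overlapping cores), and the TATA motif TATAAA on the gene's strand.
Gal (chr19:3414495-3414794, minus strand): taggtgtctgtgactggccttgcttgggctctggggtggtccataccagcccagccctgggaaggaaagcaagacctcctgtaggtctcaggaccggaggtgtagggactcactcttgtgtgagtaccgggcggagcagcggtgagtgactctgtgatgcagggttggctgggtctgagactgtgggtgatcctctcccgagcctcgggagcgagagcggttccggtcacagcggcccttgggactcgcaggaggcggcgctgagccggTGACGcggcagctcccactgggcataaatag
Adcyap1 (chr17:93198918-93199217, plus strand): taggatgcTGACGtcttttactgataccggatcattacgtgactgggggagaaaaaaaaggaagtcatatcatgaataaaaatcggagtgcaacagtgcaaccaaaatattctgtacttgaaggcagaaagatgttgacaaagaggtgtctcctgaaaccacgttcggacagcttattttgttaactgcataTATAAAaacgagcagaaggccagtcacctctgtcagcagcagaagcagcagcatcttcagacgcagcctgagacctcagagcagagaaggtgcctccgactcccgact
Cartpt (chr13:99900634-99900933, minus strand): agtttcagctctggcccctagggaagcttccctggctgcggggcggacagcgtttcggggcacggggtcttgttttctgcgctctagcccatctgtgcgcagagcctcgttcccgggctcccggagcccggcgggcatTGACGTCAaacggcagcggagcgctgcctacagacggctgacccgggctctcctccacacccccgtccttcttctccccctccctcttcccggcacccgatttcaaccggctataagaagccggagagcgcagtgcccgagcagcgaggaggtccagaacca
Sst (chr16:23890795-23891094, minus strand): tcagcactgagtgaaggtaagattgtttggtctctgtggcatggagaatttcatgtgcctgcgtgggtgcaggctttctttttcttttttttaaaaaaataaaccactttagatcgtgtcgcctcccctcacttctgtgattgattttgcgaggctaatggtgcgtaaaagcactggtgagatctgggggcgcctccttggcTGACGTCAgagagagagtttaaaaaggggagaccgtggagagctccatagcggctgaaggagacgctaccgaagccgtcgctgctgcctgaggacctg
RefSeq windows matched 9 of the 10 members. The full element was found in Cartpt and Sst, starting 112 and 48 bases before the annotated start, and in 588 of 32851 windows of all genes (1.79%). The core, counted with or without the rest of the element, was found in 7 of the 9 members and in 20.8% of all windows. TATAAA was found in 3 of the 10 windows of members and in 8.32% of all windows. These counts were not tested. Cartpt was upregulated in sacral DRG and Sst was not called. A match of these letters is a description of the sequence, and binding was not measured.

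Gal (chromosome 19, 3409919 to 3414472, minus strand) encodes galanin, which acts mostly through inhibitory receptors. Its level was 4.22, 4.84 and 5.90 log2 RPKM (lowest, median, highest) in lumbar and 5.29, 5.87 and 6.47 in sacral libraries, from 498 to 3649 reads per library. The sacral libraries lay higher as a group, and the ranges overlapped between 5.29 and 5.90. The difference was -0.97 (SE 0.15, limma adjusted p = 5.1e-05), and all 10 donors had more in sacral DRG. Within donors it ran from -0.33 to -2.001, both ends in males.

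Adcyap1 (chromosome 17, 93598762 to 93604825, plus strand) encodes PACAP, a peptide that raises cAMP through the PAC1 receptor. Its level was 5.78, 6.30 and 6.85 in lumbar and 6.67, 7.18 and 7.78 in sacral libraries, from 4836 to 22755 reads. The ranges met only at their edges, and the sacral median stood above every lumbar library. The difference was -0.86 (SE 0.12, limma adjusted p = 2.0e-05), with all 10 donors higher in sacral DRG and a range within donors of -0.43 to -1.29.

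Cartpt (chromosome 13, 100668439 to 100670638, minus strand) encodes the CART peptides. Its level was 3.56, 4.23 and 4.89 in lumbar and 4.33, 4.90 and 5.28 in sacral libraries, from 373 to 2286 reads. The sacral median stood just above every lumbar library, and the ranges overlapped below it. The difference was -0.65 (SE 0.14, limma adjusted p = 0.00064), and 9 of 10 donors had more in sacral DRG.

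Nmb (chromosome 7, 88047114 to 88049962, minus strand) encodes neuromedin B, a bombesin-like peptide. Its level was 6.43, 6.99 and 7.43 in lumbar and 7.04, 7.23 and 7.54 in sacral libraries, from 2730 to 7947 reads. Unlike those of the other members, the reads worked back for Nmb lay 0.02 to 0.45 from a whole number. Its read counts are therefore uncertain. The sacral libraries were bunched around the upper end of the lumbar range. The difference was -0.25 (SE 0.09, limma adjusted p = 0.031), with 9 of 10 donors higher in sacral DRG. The gene overlaps Sec11a, a signal peptidase subunit, on the same strand, and reads in the shared part are uncertain. Sec11a stood at 2.97 ± 0.27 in lumbar and 3.04 ± 0.13 in sacral DRG (difference -0.07, limma adjusted p = 0.539). The call for Nmb was the least stable. It was lost without the replicate block (adjusted p = 0.062) and without male replicate 2, 3 or 4 or female replicate 3 or 4 (0.051 to 0.082).

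**Figure D2:**
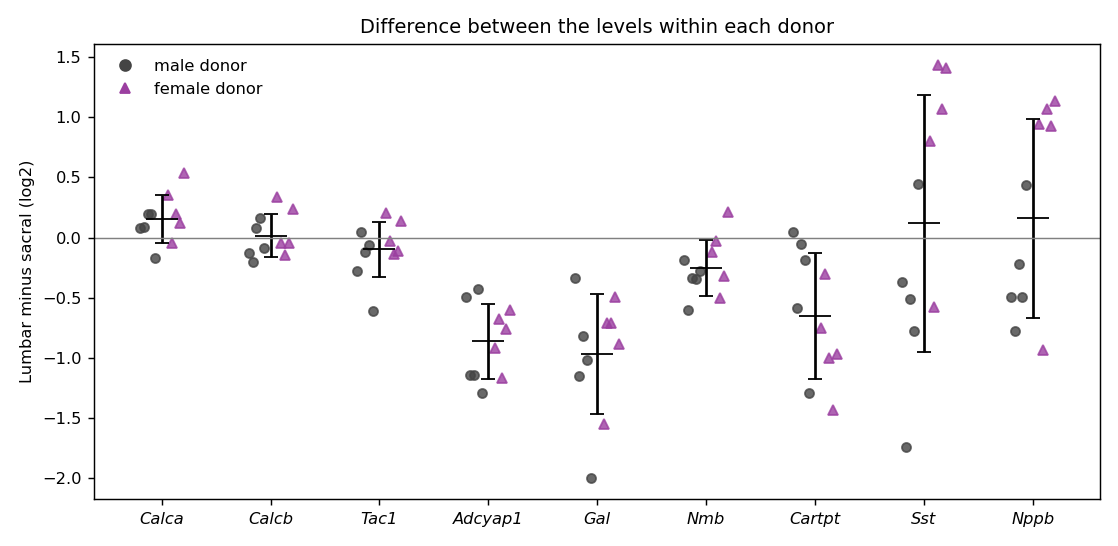
Difference between the levels within each donor (lumbar minus sacral, log2, vertical axis) for 9 neuropeptide precursors, circles for 5 male and triangles for 5 female donors, with the mean and SD of 10 donors in black and a line at 0. All donors lie below 0 for Gal and Adcyap1, whereas Sst and Nppb have 4 of 5 males below 0 and 4 of 5 females above it.

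The scale on which the libraries are compared matters for the smaller differences. The median of all genes tested was -0.11 as deposited, and under TMM factors fitted to the reads it was 0.00. On the TMM scale, where 43.3% of genes were called, Calca became called higher in lumbar DRG (0.27, adjusted p = 0.016), Nmb was no longer called (-0.14, adjusted p = 0.236), and Gal, Adcyap1 and Cartpt kept their calls. Centring each library on the pan-neuronal markers moved the median of all genes to 0.43, and 64.4% of genes were called, 61.4% higher in lumbar DRG. On that scale Gal (-0.43, adjusted p = 0.012) and Adcyap1 (-0.32, adjusted p = 0.0075) were still called higher in sacral DRG. Cartpt was not called (-0.11, adjusted p = 0.399). Calca (0.70), Calcb (0.56), Tac1 (0.44), Sst (0.66), Nppb (0.70) and Nmb (0.29) were called higher in lumbar DRG. These scales differ by 1 constant per library, so changes relative to the median of all genes are the same on each by construction (-0.86 for Gal and 0.26 for Calca). Quantile normalisation, which changes more than a constant, gave -0.73 for Gal and -0.07 for Calca relative to its median of -0.02. With the glial marker mean as a covariate, 0 of 9 members and 0.632% of all genes were called in the limma fit. An unadjusted p under 0.05 was reached by 0 of the 9 members, with Gal at -0.54 and Adcyap1 at -0.37. The glial mean was higher in lumbar DRG in 10 of 10 donors. The fit therefore cannot separate the level from that mean, and no conclusion is drawn from the calls lost in it.

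The ratio of one peptide transcript to another within a library does not depend on scaling by 1 constant per library. Each member with a value in all 20 libraries was therefore set against Calca, and the donor differences of the 8 log2 ratios were tested by an exact two-sided sign-flip permutation test over the 10 donors, with Benjamini-Hochberg adjustment over the 8 ratios. The smallest p this design allows is 0.00195. Relative to Calca, Gal was 2.18-fold higher in sacral DRG (log2 difference -1.12 ± 0.50, SD), Adcyap1 2.03-fold (-1.02 ± 0.31) and Cartpt 1.75-fold (-0.81 ± 0.56). All 3 moved that way in 10 of 10 donors, with the smallest p the permutations can give and an adjusted p of 0.00521. Nmb was 1.32-fold and Tac1 1.19-fold higher relative to Calca, each in 9 of 10 donors (exact permutation p = 0.00391, adjusted p = 0.00625). Against the median of all genes, however, Calca itself lay at 0.265, Calcb at 0.126 and Tac1 at 0.014. A gene at that median would therefore rise over Calca much as Tac1 did. The share of all genes that rise relative to Calca was not computed. For Calcb the ratio rose 1.1-fold, in 8 of 10 donors (exact permutation p = 0.0195, adjusted p = 0.026), and leaving out any of 6 donors took the adjusted p to 0.0521. Sst and Nppb did not move relative to Calca in one direction, with 5 of 10 donors each way (exact permutation p = 0.908 and 0.98). All 8 ratios share Calca as their denominator. They were not tested after quantile normalisation, which can change them. On that scale the level differences were -0.09 for Calca, -0.18 for Tac1, -0.02 for Nmb and 0.27 for Calcb. Nmb and Calcb thus did not stand higher in sacral DRG relative to Calca there. Gal (-0.75), Adcyap1 (-0.63) and Cartpt (-0.44) still lay beyond Calca on the sacral side, as did Tac1.

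**Figure D3:**
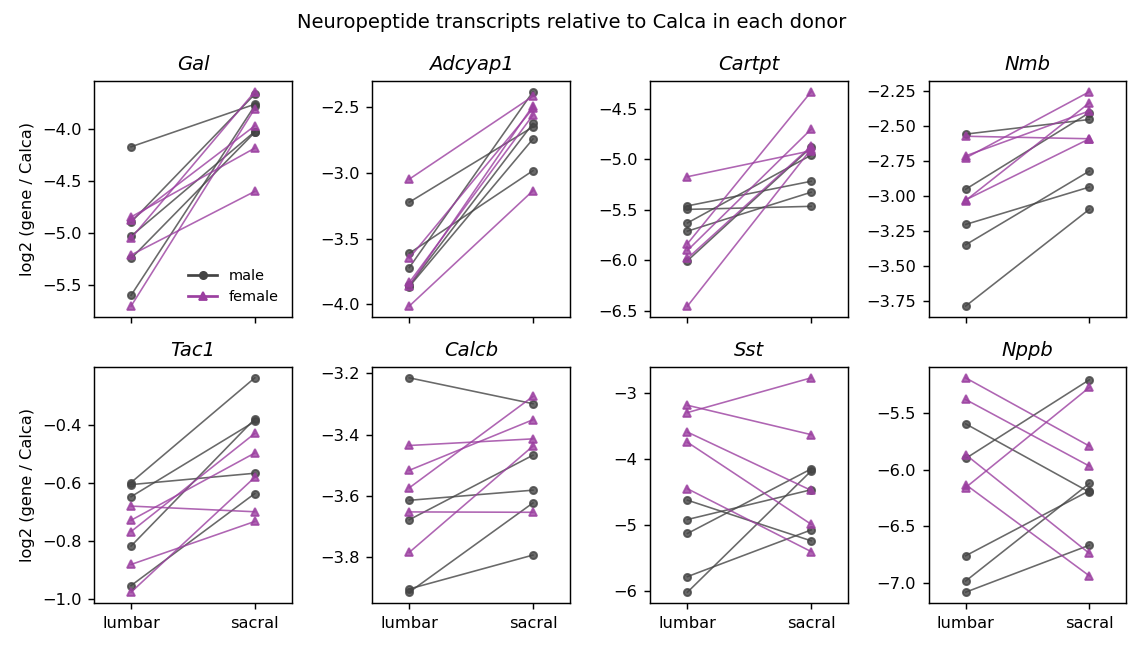
Log2 ratio of 8 neuropeptide transcripts to Calca (vertical axes, each panel on its own scale) in lumbar and sacral DRG, with 1 line per donor, circles for males and triangles for females. Lines rise towards sacral DRG in 10 of 10 donors for Gal, Adcyap1 and Cartpt and in 9 of 10 for Nmb and Tac1, and cross for Sst and Nppb.

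Somatostatin and BNP transcripts varied more between donors than any other member. The SD of the donor differences was 1.07 log2 units for Sst and 0.83 for Nppb, against 0.18 to 0.52 for the other members with values throughout. Sst (chromosome 16, 23889667 to 23890930, minus strand) was 4.21, 5.38 and 6.74 (lowest, median, highest) in lumbar and 4.46, 5.32 and 7.002 in sacral libraries. Nppb (chromosome 4, 147359897 to 147361314, plus strand) was 3.24, 3.83 and 4.96 in lumbar and 2.70, 3.80 and 4.505 in sacral libraries. For both genes the ranges overlapped over most of their length. The ends of the Sst range lay a little higher in sacral DRG, but its median lay a little lower. For Nppb the ends and the median were all lower in sacral DRG. The difference was 0.12 (95% interval -0.37 to 0.61, limma adjusted p = 0.704) for Sst and 0.16 (-0.25 to 0.57, adjusted p = 0.53) for Nppb.

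The spread of Sst followed sex in lumbar DRG. Its levels in the 5 female lumbar libraries were 6.74, 6.43, 5.89, 5.56 and 6.55, and in the 5 male lumbar libraries 5.16, 4.21, 4.58, 4.73 and 5.20, so that the sexes did not overlap. Among 15318 genes with a value in all libraries, the sexes did not overlap in lumbar DRG for 1.33%. The female minus male difference was 1.46 (SE 0.37), which failed the adjustment over all genes (limma adjusted p = 0.216, from an unadjusted p-value of 0.00070). In sacral DRG the sexes overlapped throughout, with 5.94, 7.002, 4.46, 4.49 and 5.14 in females and 5.53, 5.95, 5.09, 5.50 and 4.75 in males, a difference of 0.04 (SE 0.37).

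Sst was accordingly lower in lumbar than in sacral DRG in 4 of 5 males (mean of the donor differences -0.59 ± 0.79, SD) and higher in lumbar DRG in 4 of 5 females (0.83 ± 0.83). Nppb had the same signs, with -0.31 ± 0.46 in males and 0.63 ± 0.88 in females. The sex by level interaction was 1.42 (SE 0.47) for Sst and 0.94 (SE 0.39) for Nppb, with unadjusted limma p-values of 0.0067 and 0.026 and adjusted p-values of 0.933 and 1. By limma, 0 of 9 members and 0.0% of all genes were called for the interaction, while 2 members and 674 of 16304 genes (4.13%) had an unadjusted p under 0.05.

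The genes whose profile over the 20 libraries was closest to that of Sst were looked up after its values had been seen. By the root mean square difference of the mean-centred log2 values, the closest of those 15318 genes was Il31ra (0.44, against a spread of 0.79 for Sst itself), a subunit of the receptor for the itch cytokine IL-31. Htr1f (0.50), a serotonin receptor, and Cysltr2 (0.53), a leukotriene receptor, came next, and Nppb was the fourth (0.55). Il31ra was 4.45, 4.58, 4.08, 3.66 and 4.51 in female and 3.497, 2.86, 3.15, 3.46 and 3.21 in male lumbar libraries. Since it was picked for its likeness to Sst over these libraries, this pattern is a description and adds nothing independent. Osmr, the partner subunit of the IL-31 receptor, was 3.83 ± 0.41 in female and 3.52 ± 0.30 in male lumbar DRG and was not called (limma adjusted p = 0.542).

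**Figure D4:**
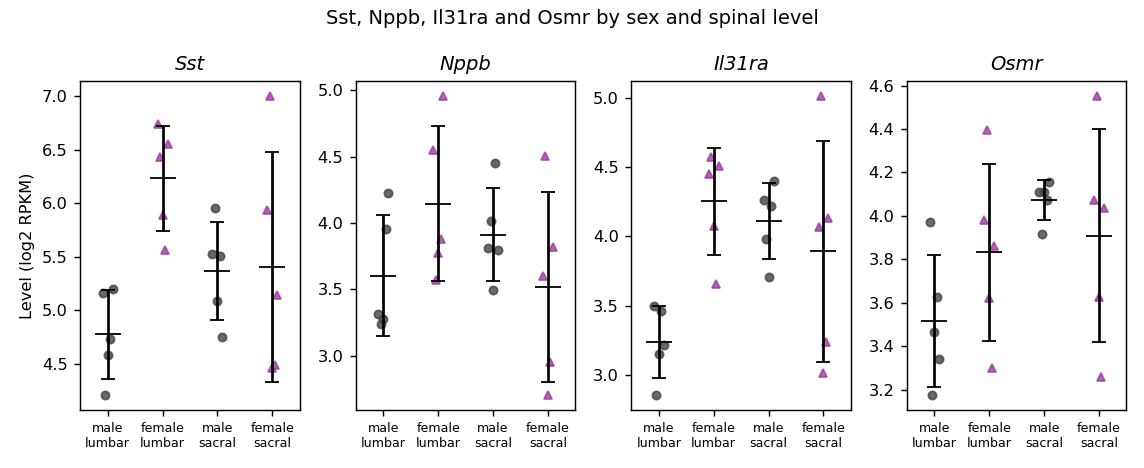
Level in log2 RPKM (vertical axes, each panel on its own scale) of Sst, Nppb, Il31ra and Osmr in the 4 groups of 5 libraries, with the mean and SD in black. In lumbar DRG all female libraries lie above all male libraries for Sst and Il31ra, and in sacral DRG the sexes overlap for all 4 genes.

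No other member separated the sexes fully at either level. In lumbar DRG 0 of 9 members were called between the sexes (0.0427% of all genes, limma). At an unadjusted p under 0.05 there was 1 member of 9, beside 11.4% of all genes. In sacral DRG 0 of 9 were called (0.0368% of all genes, limma), with 3 of 9 at an unadjusted p under 0.05, beside 8.08% of all genes. The 3 members were Tac1, lower in females by 0.47 (SE 0.13, limma adjusted p = 0.312), Gal (-0.52, SE 0.24, adjusted p = 0.607) and Calca (-0.33, SE 0.14, adjusted p = 0.577). Their sacral levels in females and males were 9.07 ± 0.20 and 9.55 ± 0.18 for Tac1, 5.62 ± 0.26 and 6.14 ± 0.31 for Gal, and 9.66 ± 0.18 and 9.99 ± 0.20 for Calca, so each was lower in females by more than 1 SD without passing the adjustment.

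Gal and Adcyap1 were called between the levels in each sex. Gal was called in males (-1.06, SE 0.22, limma adjusted p = 0.0015) and in females (-0.87, SE 0.22, adjusted p = 0.0069). Adcyap1 was called in males (-0.90, SE 0.18, adjusted p = 0.0011) and females (-0.83, SE 0.18, adjusted p = 0.0027). Cartpt passed in females (-0.89, SE 0.19, limma adjusted p = 0.003) and not in males (-0.41, adjusted p = 0.109), and Nmb in males (-0.35, SE 0.13, adjusted p = 0.047) and not in females (-0.15, adjusted p = 0.415). The test of the difference between the sexes did not pass for Cartpt (-0.48, SE 0.27, limma adjusted p = 1) or for Nmb (0.20, SE 0.18, adjusted p = 1). In each sex 3 of 9 members were called, beside 29.8% of all genes in males and 25.1% in females.

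Vip (chromosome 10, 4698927 to 4707323, minus strand), the precursor of vasoactive intestinal peptide, was not detectable at this depth in 19 of 20 libraries. In the remaining library, male sacral replicate 1, it had 8 reads (0.1 RPKM). A count of 0 allows up to 3 reads, which would be 0.0292 to 0.0542 RPKM depending on the library, a floor that covers counting error only. It did not pass the filter on low values and has no fold change.

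The genes that sort, cut and package neuropeptides were set beside the precursors. Of 16 such genes, 15 were called higher in sacral DRG and 1 higher in lumbar DRG, with a median difference of -0.81 against -0.10 for the 9 precursors tested and -0.11 for all genes. Their mean level was 4.395 to 4.801 log2 RPKM in sacral and 3.44 to 4.13 in lumbar libraries, without overlap. Pcsk1, the convertase PC1/3, was 3.35-fold higher in sacral DRG (-1.74, SE 0.14, limma adjusted p = 2.8e-08). Pcsk2, the partner convertase PC2, was 2.03-fold higher (-1.02, SE 0.12, adjusted p = 3.9e-06). Vgf, a granule protein and peptide precursor, was 3.16-fold higher, Cadps2, which primes granules for release, 2.84-fold, and the granule membrane protein Ptprn2 2.06-fold. The most abundant of the list were the granins Scg2, 2.09-fold higher in sacral DRG, and Scg3 (-0.65), and carboxypeptidase E, Cpe (-0.79). Pcsk5, a convertase of the constitutive pathway, was higher in lumbar DRG (0.79, SE 0.17, limma adjusted p = 0.00075). The pan-neuronal markers moved the same way, with a median of -0.52.

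**Figure D5:**
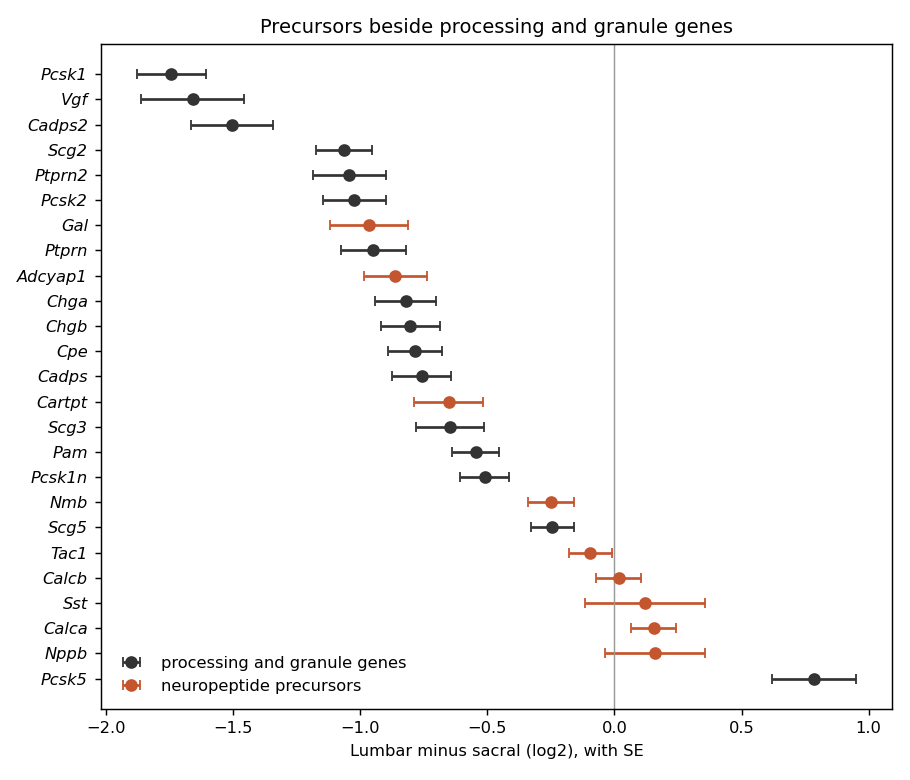
Difference between the levels (lumbar minus sacral, log2, horizontal axis, with SE) for 16 peptide processing and granule genes in black and 9 neuropeptide precursors in orange, ordered by size. Pcsk1, Vgf and Cadps2 lie below -1.5, the precursors run from -0.97 for Gal to 0.16 for Nppb and Calca, and Pcsk5 alone lies well above 0.

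Receptors for the member peptides were mostly low in these libraries, in which glial and vascular markers were read too. Of 23 listed in the table, 11 passed the filter, and 6 were called higher in sacral and 2 higher in lumbar DRG (median difference -0.65). The galanin receptor Galr1 was 2.18-fold higher in sacral DRG (-1.12, SE 0.18, limma adjusted p = 5.3e-05), the same direction as Gal. The somatostatin receptor Sstr4 was 2.83-fold higher (-1.501, SE 0.22, adjusted p = 2.0e-05) and Sstr2 was called too (-0.42, adjusted p = 0.043), whereas Sst itself was not. Grpr, a bombesin-family receptor, was 3.1-fold higher from a low level (-2.10 ± 1.19 in lumbar and -0.46 ± 0.59 in sacral DRG). Npr2 (-0.65) and Npr3 (-0.98), which bind natriuretic peptides, were also called. The PAC1 receptor Adcyap1r1 (1.16, SE 0.44, limma adjusted p = 0.038) and the CGRP receptor subunit Calcrl (0.76, SE 0.14, adjusted p = 0.00026) were higher in lumbar DRG. Ramp2, the most abundant of the list, was not called (-0.14, adjusted p = 0.136).

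Among 26 other neuropeptide precursors, 7 passed the filter, 2 were called higher in sacral and 1 higher in lumbar DRG. Penk, the enkephalin precursor, was 5.39-fold higher in sacral DRG (2.27 ± 0.86 in lumbar and 4.70 ± 1.21 in sacral, log2 difference -2.43, SE 0.22, limma adjusted p = 2.1e-07), more than any of the 10 members. These values pool the sexes. Sacral Penk was 5.79 ± 0.20 in males and 3.605 ± 0.497 in females. The mean of the donor differences was -3.10 in males and -1.76 in females. Nppa, which encodes ANP, was 2.74-fold higher (-1.46, SE 0.35, adjusted p = 0.0023) at a level near the filter. Nts, the neurotensin precursor, was called higher in lumbar DRG (0.53, adjusted p = 0.013), although 5 of 10 donors had more in sacral DRG. Adm, the adrenomedullin precursor, was not called (-0.21, adjusted p = 0.283).

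The 9 genes listed as peptidergic nociceptor markers, among them Trpv1 and the sodium channels Scn10a and Scn11a, were all called higher in sacral DRG. Their median difference was -0.87. The paper gives Scn10a as a gene of small, unmyelinated neurons, and whether the list marks the peptidergic class alone was not tested. Beside them, the precursors of CGRP and substance P had differences of 0.16, 0.02 and -0.10. Of 9 nonpeptidergic markers 6 were called higher in sacral DRG (median -0.55). Of 7 myelinated neuron markers tested, 3 were called higher in lumbar DRG. Th was the single autonomic marker to pass the filter and was 2.64-fold higher in sacral DRG. The acetylcholine enzyme gene Chat and the sympathetic factor Hand2 had no read in any library.

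By the same measure of likeness, the closest genes to Adcyap1 were Npy1r (0.12), Kcnmb2 (0.20) and Syt4 (0.22), against a spread of 0.54 for Adcyap1 itself. For Gal the closest of all was Adcyap1 (0.30, against a spread of 0.65), followed by Ppapdc1a (0.31) and Kcnc4 (0.32). For Cartpt they included the amidating enzyme gene Pam (0.25) and C1qtnf1 (0.26), against a spread of 0.48. For Nmb they were Arl6ip1 (0.10), Rab5b (0.13) and Gm10031 (0.14), against 0.26. The measure was taken over 20 libraries that share the difference between the levels, and it is a description without a test.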

How the data were processed

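Per the labels, total RNA of sorted cells was amplified with the Ovation RNA-Seq System v2, made into Nextera XT libraries and sequenced on a HiSeq2500. The authors aligned reads to mm9 (Subread), took unique alignments, summed them per Ensembl gene with featureCounts, applied TMM in edgeR and deposited log2 RPKM values. The submitters' notes name Subread 1.18 and 1.20.6, edgeR 3.12.1 and limma 3.26.9. Use of strand in the counting is not given in the sources used here. All libraries have the same median value. An empty cell is a gene without reads. Whole reads were worked back from the steps of low values (98.574% of 135025 values under 50 reads lay within 0.01 of a whole number) and used for depth, floors and the TMM and voom alternatives.

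Differences of these log2 values were fitted in R 4.3.3 by limma 3.58.1, using 4 group means, a trended prior and the donor as a random block (correlation 0.179), for genes with a mean above -1 log2 RPKM in at least 1 group with at least 3 values. Donor numbers in the labels pair the libraries. Deviations from the group means correlated at 0.18 within donors (0.04 to 0.30) and -0.04 between donors of a sex (-0.371 to 0.332). The ranges overlapped. Such deviations cancel out within a group, so the second mean follows largely from the first. The scripts were tested on simulated data. Alternatives left out donors, block or filter, or changed scale, pseudocount, weights or covariates. Scaling to reads outside the mitochondrial genome was chosen after seeing the data.

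The members and all lists were chosen with earlier results of these data known. All 10 members are named. From other lists, genes called with a change over 1 log2 unit and the 3 most abundant could be named, and for each called member the 3 closest profiles, of which 1 is not reported here. Pcsk5, Calcrl, Npr3, Il31ra, Htr1f, Cysltr2, Osmr, Sec11a, Chat and Hand2 are outside this rule and were named after their values were seen. Other cell types gave, as called higher in sacral and in lumbar DRG, 0 and 2 of 4 immune, 1 and 5 of 6 vascular, 0 and 3 of 5 fibroblast and 3 and 3 of 6 blood markers tested.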

Additional observations from a re-analysis of the deposited data

How the results depend on the processing

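The count of 4 members called between the levels became 8 after centring on pan-neuronal markers and 2 in male donors alone. It was 0 with the glial marker mean as a covariate, and that mean itself moved with the level. When each donor was left out in turn, the count was 3 to 4. Without the replicate block it was 3, since Nmb lost its call, and the block changed no other call. Over 26 alternatives Gal ran from -1.06 to -0.43 and Adcyap1 from -0.92 to -0.32, both called in 25 of 26 (not with the glial covariate), and Cartpt was called in 23 of 26. The sign of Nmb turned with pan-neuronal centring (0.29) and the glial covariate (0.14), and its call was lost in 12 others, among them quantile normalisation (-0.02) and scaling to reads outside the mitochondrial genome (-0.02). Quantile normalisation turned Calca to -0.093, while Tac1 turned to 0.016 with TMM or voom, to 0.44 with pan-neuronal centring, to 0.13 with the mitochondrial scaling and to 0.013 in female donors alone. In male donors alone Sst (-0.59), Nppb (-0.31) and Calcb (-0.034) changed sign. Calca gained a call, higher in lumbar DRG, with TMM or voom (0.27), pan-neuronal centring (0.70) and the mitochondrial scaling (0.38). Calcb gained one with quantile normalisation (0.27), pan-neuronal centring (0.56) and the mitochondrial scaling (0.24), where 5 members were called in all. With donors left out in turn, Sst ran from -0.01 to 0.294 and Calcb from -0.017 to 0.043. The ratio of Nppb to Calca became -0.008 with a pseudocount of 1, and with donors left out that ratio ran from -0.092 to 0.103 and the ratio of Sst from -0.177 to 0.164. The 6 ratios called became 5 to 6 with that pseudocount or with donors left out, and ratios after quantile normalisation were not tested. The members called between the sexes or for the interaction stayed at 0 without the replicate block and with each donor left out. They also stayed at 0 with a pseudocount of 1, quantile normalisation or array weights. Their counts under the other alternatives are not given here. The cause of these changes was not tested. Depth limited Vip alone, since every other member had at least 294 reads in each library.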
